A study of Mus musculus with 12 samples.

Results

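SLC25 proteins are the mitochondrial carriers, the family that moves nucleotides, phosphate, carboxylates, amino acids, cofactors and metals across the inner mitochondrial membrane. The members were all genes whose symbol in the deposited count table is Slc25a followed by a number and nothing else, which gave 47 of 26214 symbols. RNA came from mLTC-1, a Leydig cell line of the mouse. Leydig cells are the testosterone-making cells of the testis. The 6 MSNBA libraries were from cells given 100 µM of MSNBA, an amine that joins a benzodioxole to a phenyl ring with a nitro and a methylsulfonyl group, for 24 h, and the 6 control libraries were from cells given its solvent DMSO for 24 h. The series presents MSNBA as a blocker of Glut5, a fructose transporter, and asks how blocking it alters the metabolism of these cells. All libraries share the same single cell line, and no label tells whether replicates were grown as separate cultures. The p-values therefore reflect the spread among these libraries alone, which may be technical.

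Most SLC25 carriers work as exchangers: a small protein of repeated membrane-spanning pairs binds a substrate on one side, closes behind it and opens to the other side. ADP/ATP exchangers and the phosphate carrier supply the ATP synthase and bring ATP to the cytosol, the citrate carrier delivers carbon for lipid and sterol synthesis, and the aspartate/glutamate and oxoglutarate carriers pass reducing equivalents inward. In steroid-making cells the inner mitochondrial membrane is also where cholesterol is converted to pregnenolone, so the carriers share their membrane with the start of the steroid pathway.

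Libraries held 94179 to 657251 counts in the MSNBA group and 59113 to 234225 in the control group, with 1598286 counts over the 6 MSNBA libraries and 679637 over the 6 control libraries. All 7 Leydig markers were detected, and their summed level was 7569 to 9388 CPM (counts per 1000000 counts of the full library) in MSNBA and 7490 to 10905 CPM in control. Summed levels were at most 13.3 CPM in MSNBA and 47.6 CPM in control for 5 macrophage markers, 12.2 and 50.8 CPM for 4 endothelial markers, and 53.1 and 27.5 CPM for 5 Sertoli cell markers. They were at most 127 CPM in MSNBA and 143 CPM in control for 6 fibroblast and peritubular markers and 66.1 and 135 CPM for 5 germ cell markers. None of these markers was at 0 over all 12 libraries, and their part in any result was not tested. Slc2a5, which encodes Glut5, had 1 count over the MSNBA libraries and 1 over the control libraries.

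The carrier genes together had 9559 counts. Of the 47 members, 13 passed the low-count filter of edgeR (filterByExpr with its default minimum of 10 counts) and were tested, and these held 85.5% of the family's counts. Another 21 had at least 20 counts over the 12 libraries but fell below the filter, and 13 had fewer than 20, of which 4 had 0. The number of members with at least 1 count was 30 to 39 in MSNBA libraries and 30 to 39 in control libraries, and after thinning every library to 59113 counts it was 27 to 31 in MSNBA and 28 to 32 in control.

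No carrier passed an adjusted p of 0.05, the threshold used here: 0 members were higher and 0 lower in MSNBA by the edgeR quasi-likelihood test, where 0.0% of the 2614 tested genes were called higher and 0.0765% lower. Slc25a5 and Slc25a33 had an edgeR unadjusted p under 0.05 on the higher side and Slc25a23 and Slc25a20 on the lower side. That is 2 and 2 of 13 members, where 4.17% of all tested genes were on the higher side and 4.78% on the lower. DESeq2 gave 4 members with an unadjusted p under 0.05 among 43 with a count, beside 394 of all 19576 genes with a count. Slc25a23 and Slc25a5 were among these 4 members, but Slc25a33 and Slc25a20 were not, and the rest were below the edgeR filter. By limma-voom 4 of the 13 members had an unadjusted p under 0.05, the same 4 as by edgeR, beside 259 of the 2614 tested genes. Neither tool called a member after adjustment. The groups overlapped for all 13 tested members, and 0.65% of tested genes had groups that did not overlap. The median log2 fold change (MSNBA over control) of the tested members was 0.021, with 7 values above 0 and 6 below, beside a median of -0.0082 over all tested genes.

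Promoters are shown for the 4 members with an edgeR unadjusted p under 0.05, none of which passed adjustment. Each is a window of 250 bases before to 50 bases after the RefSeq start on GRCm38.p6 (the same assembly as mm10), printed 5′ to 3′ on the gene's strand. They lie at chr17:57059814-57060113 on the minus strand for Slc25a23, chrX:36795347-36795646 on the plus strand for Slc25a5, chr4:149774218-149774517 on the minus strand for Slc25a33 and chr9:108661886-108662185 on the plus strand for Slc25a20. Capitals mark matches, on either strand, to 5 motifs: the TATA box as TATANAA, the GC box as GGGCGG, the core of the cAMP response element as TGACGT, the CCAAT box as CCAAT, and the core of the nuclear respiratory factor 1 motif as GCGCANGCG. RefSeq lists another start for Slc25a23, whose window is not shown. In these 4 windows no match overlaps another.
Slc25a23: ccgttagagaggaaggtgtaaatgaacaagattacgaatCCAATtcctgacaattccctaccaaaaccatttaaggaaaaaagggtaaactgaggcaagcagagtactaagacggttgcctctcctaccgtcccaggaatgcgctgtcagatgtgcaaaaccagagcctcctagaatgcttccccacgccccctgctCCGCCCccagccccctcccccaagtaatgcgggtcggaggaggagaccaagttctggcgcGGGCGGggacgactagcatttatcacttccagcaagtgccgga
Slc25a5: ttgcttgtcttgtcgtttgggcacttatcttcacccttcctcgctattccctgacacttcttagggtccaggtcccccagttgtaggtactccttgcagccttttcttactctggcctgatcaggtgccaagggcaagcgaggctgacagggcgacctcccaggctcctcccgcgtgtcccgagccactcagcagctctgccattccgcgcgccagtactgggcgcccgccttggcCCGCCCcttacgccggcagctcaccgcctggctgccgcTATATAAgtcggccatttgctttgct
Slc25a33: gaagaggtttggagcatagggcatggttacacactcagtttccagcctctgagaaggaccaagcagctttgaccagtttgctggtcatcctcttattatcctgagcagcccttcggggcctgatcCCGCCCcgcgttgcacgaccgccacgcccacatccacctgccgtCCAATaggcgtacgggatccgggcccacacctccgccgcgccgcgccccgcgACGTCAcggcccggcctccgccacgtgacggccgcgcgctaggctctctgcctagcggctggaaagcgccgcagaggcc
Slc25a20: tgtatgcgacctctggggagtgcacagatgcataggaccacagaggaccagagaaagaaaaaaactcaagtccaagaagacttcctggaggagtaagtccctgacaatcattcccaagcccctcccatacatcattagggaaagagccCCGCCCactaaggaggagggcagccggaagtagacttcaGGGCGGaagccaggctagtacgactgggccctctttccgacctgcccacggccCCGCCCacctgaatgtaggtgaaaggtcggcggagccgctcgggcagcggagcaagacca

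All 4 windows held a GC box, which was present in 30 of the 36 carrier promoters matched by symbol (83.3%) and in 35.9% of the 27025 promoters in the RefSeq table, a set that also holds non-coding genes. The median GC content was 60.2% over the carrier promoters and 52.7% over all promoters. Slc25a5 held the TATANAA motif, starting at base 25 after its RefSeq start, and it was the 1 carrier promoter of 36 with it (2.78%), beside 11.8% of all promoters. Slc25a33 held the cAMP response element core, which was in 4 of the 36 carrier promoters (11.1%) and in 7.64% of all promoters. The CCAAT box was in the windows of Slc25a23 and Slc25a33, in 17 of 36 carrier promoters (47.2%) and in 37.9% of all promoters. The nuclear respiratory factor 1 core was in 0 of the 4 windows printed, in 2 of 36 carrier promoters (5.56%), and in 6.47% of all promoters. These matches are descriptions of letters, and no binding was measured.

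**Figure D1:**
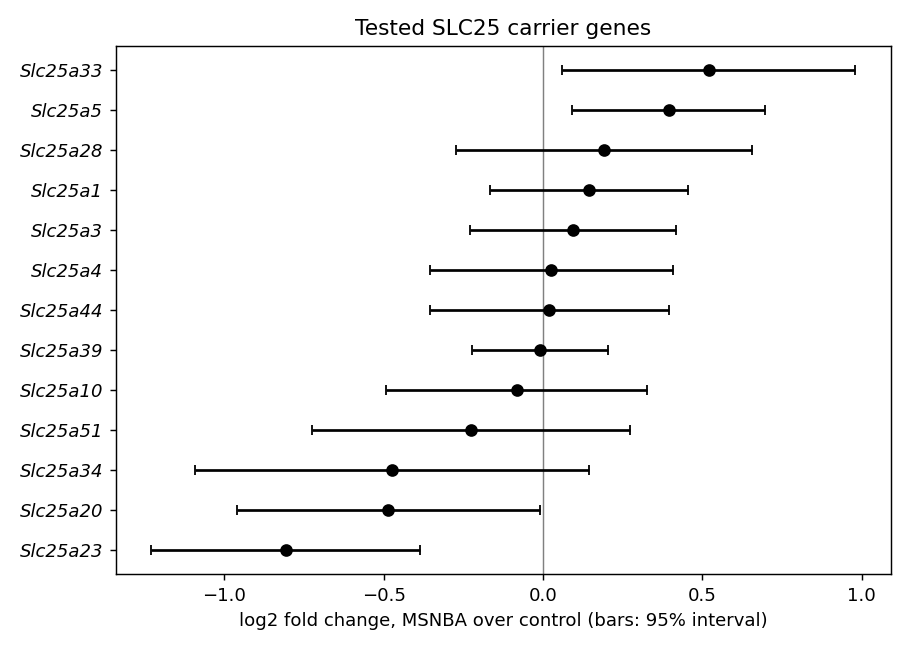
Log2 fold change (x axis, MSNBA over control) of the 13 tested SLC25 carrier genes, with 95% intervals as bars. The intervals of Slc25a23 and Slc25a20 lie below 0 and those of Slc25a5 and Slc25a33 above 0, and the other 9 span 0.

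The adenine nucleotide and phosphate carriers had 8 members, of which 4 were tested. Slc25a23 encodes a calcium-regulated carrier that exchanges ATP-Mg for phosphate and so sets the adenine nucleotide content of the matrix. In MSNBA replicates 1 to 6 it measured 141, 236, 127, 163, 158 and 82.0 normalized CPM (counts of the tested genes scaled with TMM factors), against 190, 199, 328, 305, 260 and 300.02 normalized CPM in control replicates 1 to 6. MSNBA replicate 2 lay among the controls, and the other 5 MSNBA libraries lay below every control. The group means were 151 ± 50.8 normalized CPM in MSNBA and 264 ± 57.8 normalized CPM in control (SD, n = 6 each). This is a 0.572-fold level (95% interval 0.426 to 0.766), or a log2 fold change of -0.81 (SE 0.21, edgeR unadjusted p = 0.000386, adjusted p = 0.101). It was the lowest p-value among the carriers, and with 1 library left out the adjusted p ran from 0.0531 (without control 1) to 0.295 (without control 3). When log2 depth entered the edgeR model as a covariate, its log2 fold change was -0.62 and its adjusted p 0.467.

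Its relatives with calcium-binding domains had few counts. Slc25a24 had 35 counts in MSNBA and 17 in control, or 21.9 pooled CPM (exact Poisson 95% interval 15.3 to 30.5) and 25.01 pooled CPM (14.6 to 40.05). Slc25a25 had 55 counts in MSNBA and 26 in control, or 34.4 pooled CPM (25.9 to 44.8) and 38.3 pooled CPM (24.99 to 56.1). The intervals of both genes overlapped between the groups, which is not in itself a test of a difference. Fitted without the low-count filter, Slc25a24 had a log2 fold change of -0.092 (SE 0.48, edgeR adjusted p = 0.964). Slc25a25 had -0.020 (SE 0.38, edgeR adjusted p = 0.985) in the same fit. Slc25a41, a relative without the calcium-binding domain, had 0 counts in both groups. The limit that a count of 0 allows, taken as 3 counts, is 1.88 CPM for the pooled MSNBA libraries and 4.41 CPM for the pooled control libraries. That limit is one-sided, and the two-sided exact Poisson 95% intervals used for the other genes reach 2.31 CPM in MSNBA and 5.43 CPM in control. Such limits and intervals cover counting error only.

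Slc25a5 encodes the ADP/ATP exchanger that predominates in dividing cells. It measured 523, 354, 479, 596, 489 and 514 normalized CPM in MSNBA replicates 1 to 6, against 397, 347, 312, 417, 325 and 403 normalized CPM in control replicates 1 to 6. All MSNBA libraries but replicate 2 lay above the highest control, which was control 4. The means were 493 ± 79.3 normalized CPM in MSNBA and 367 ± 44.4 normalized CPM in control (SD, n = 6 each). The fold was 1.31 (95% interval 1.07 to 1.62), a log2 fold change of 0.39 (SE 0.15, edgeR unadjusted p = 0.0117, adjusted p = 0.373). Its sign held in all alternatives and its adjusted p stayed above the threshold in each. Slc25a5 has processed copies in the mouse genome, one of them listed by RefSeq as Slc25a5-ps, so its count depends on how shared reads were assigned, which the sources used here do not give.

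Slc25a4, the exchanger typical of heart and muscle, measured 238, 186, 228, 285, 296 and 179 normalized CPM in MSNBA replicates 1 to 6, against 227, 314, 156, 160.3, 260 and 257 normalized CPM in control replicates 1 to 6. Every MSNBA library lay inside the control range, with a log2 fold change of 0.026 (SE 0.19) whose 95% interval ran from 0.782-fold to 1.33-fold. Slc25a31, the exchanger of male germ cells, had 6 counts in each group, or 3.75 pooled CPM in MSNBA and 8.83 pooled CPM in control. Of the summed counts of Slc25a4 and Slc25a5, Slc25a5 held 67.7 ± 3.92% in MSNBA libraries and 61.9 ± 7.23% in control libraries (SD, n = 6 each), with ranges of 62.3 to 74.2% and 52.5 to 72.2%. The shares of single libraries rest on as few as 64 counts in MSNBA and 27 in control, where exact Clopper-Pearson 95% intervals were 52.7 to 77.1% (MSNBA 2) and 35.3 to 74.5% (control 5). The share was not tested, since its members were chosen with results of these data known.

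Slc25a3, which carries phosphate for ATP synthesis, measured 464, 447, 413, 474, 475 and 611 normalized CPM in MSNBA replicates 1 to 6, against 418, 447, 296, 673, 303 and 514 normalized CPM in control replicates 1 to 6. MSNBA 6 stood above the other MSNBA libraries, but control 4 was higher still. The log2 fold change was 0.095 (SE 0.16), with a 95% interval from 0.854-fold to 1.34-fold.

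**Figure D2:**
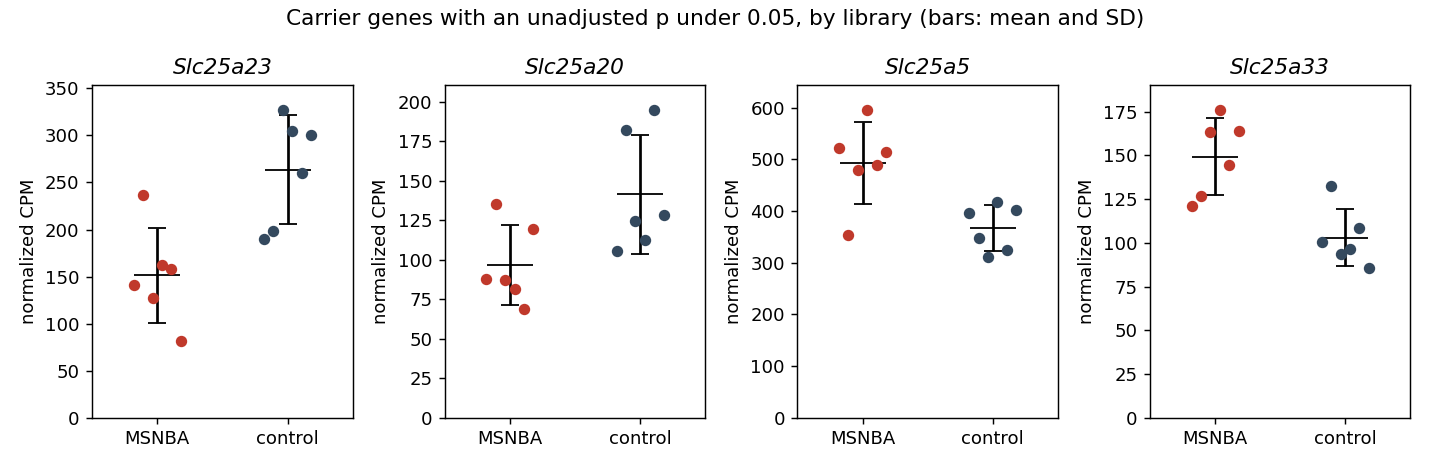
Normalized CPM (y axes, starting at 0) of Slc25a23, Slc25a20, Slc25a5 and Slc25a33 in each MSNBA and control library, with the mean and SD as black bars. MSNBA means were 151, 96.6, 493 and 149 against control means of 264, 141, 367 and 103, and the groups overlap for each gene.

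Among the 4 carboxylate carriers, 2 were tested. Slc25a1, the citrate carrier that supplies cytosolic acetyl-CoA for lipid synthesis, measured 418, 523, 424, 420.1, 351 and 626 normalized CPM in MSNBA replicates 1 to 6, against 413, 397, 405, 481, 347 and 420.02 normalized CPM in control replicates 1 to 6. MSNBA 2 and MSNBA 6 lay above every control and the other 4 lay within the control range. The log2 fold change was 0.14 (SE 0.15, 0.891-fold to 1.37-fold, edgeR adjusted p = 0.822), and without MSNBA 6 it was 0.050. Slc25a10, which exchanges malate or succinate for phosphate, ran from 159.6 to 245 normalized CPM in MSNBA and from 125 to 282 normalized CPM in control, with a log2 fold change of -0.08 (SE 0.20) and an interval from 0.712-fold to 1.25-fold. Slc25a11, the oxoglutarate/malate carrier, had 93 counts in MSNBA and 44 in control, or 58.2 pooled CPM (47.0 to 71.3) and 64.7 pooled CPM (47.04 to 86.9). Slc25a21, an oxodicarboxylate carrier, had 1 count in each group.

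The amino acid and carnitine carriers numbered 10, and 2 of them were tested. Slc25a20, which brings acylcarnitines into the matrix for fatty acid oxidation, measured 88.1, 135, 87.04, 81.3, 68.8 and 119 normalized CPM in MSNBA replicates 1 to 6, against 106, 182, 125, 112, 195 and 129 normalized CPM in control replicates 1 to 6. The 4 MSNBA libraries other than replicates 2 and 6 lay below every control. The means were 96.6 ± 25.1 normalized CPM in MSNBA and 141 ± 37.6 normalized CPM in control (SD, n = 6 each), a 0.714-fold level (95% interval 0.514 to 0.993) and a log2 fold change of -0.49 (SE 0.24, edgeR unadjusted p = 0.0455, adjusted p = 0.536). The depth covariate gave a log2 fold change of -0.28. None of the 6 carnitine system genes read out beside it was tested, and their summed level ran from 138 to 271 CPM in MSNBA and from 155 to 299 CPM in control.

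Slc25a44, the carrier of branched-chain amino acids, measured 257, 262, 214, 217, 220.3 and 261 normalized CPM in MSNBA replicates 1 to 6, against 217, 381, 156, 289, 173 and 223 normalized CPM in control replicates 1 to 6. Every MSNBA library lay inside the control range, and the log2 fold change was 0.021 (SE 0.19, 0.782-fold to 1.32-fold). The aspartate/glutamate carriers of the malate-aspartate shuttle were below the filter: Slc25a12 had 111 counts in MSNBA and 43 in control (69.4 and 63.3 pooled CPM), and Slc25a13 had 59 and 18 (36.9 and 26.5 pooled CPM). The Poisson intervals of both overlapped between the groups.

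The other amino acid carriers had fewer counts. Slc25a29, a carrier of basic amino acids, had 77 counts in MSNBA and 36 in control, or 48.2 and 52.97 pooled CPM. Slc25a38, which brings glycine in for haem synthesis, had 25 and 15 counts (15.6 and 22.1 pooled CPM). The glutamate carrier Slc25a22 had 29 and 7 counts (18.1 and 10.3 pooled CPM), and the ornithine carrier of the urea cycle, Slc25a15, had 21 and 7 (13.1 and 10.3 pooled CPM). For each of these 4 genes the exact Poisson intervals of MSNBA and control overlapped. Slc25a18, another glutamate carrier, had 1 count in each group, and Slc25a2, a second ornithine carrier, had 0 in both.

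Cofactor and nucleotide carriers had 9 members and 2 tested genes. Slc25a33, which brings pyrimidine nucleotides into mitochondria, measured 121, 127, 163, 176, 145 and 164 normalized CPM in MSNBA replicates 1 to 6, against 100.5, 132, 93.6, 96.2, 108 and 85.7 normalized CPM in control replicates 1 to 6. The 4 MSNBA libraries other than replicates 1 and 2 lay above the highest control, which was control 2. The means were 149 ± 22.2 normalized CPM in MSNBA and 103 ± 16.3 normalized CPM in control (SD, n = 6 each), a 1.43-fold level (95% interval 1.04 to 1.97) and a log2 fold change of 0.52 (SE 0.23, edgeR unadjusted p = 0.0278, adjusted p = 0.454). Slc25a36, the other pyrimidine nucleotide carrier, had 13 counts in MSNBA and 7 in control (8.13 and 10.3 pooled CPM).

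Slc25a51 encodes the mitochondrial NAD carrier. It measured 150.4, 287, 149, 325, 227 and 164 normalized CPM in MSNBA replicates 1 to 6, against 238, 165, 172, 449, 152 and 197 normalized CPM in control replicates 1 to 6. Control 4 stood far above the other controls, and the log2 fold change of -0.23 (SE 0.24) became -0.0051 without it. The depth covariate turned its sign, to 0.064.

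Below the filter, Slc25a42, which brings coenzyme A into mitochondria, had pooled Poisson intervals that did not overlap between the groups, and it is described here after its values were seen. It had 17, 7, 15, 5, 4 and 4 counts in MSNBA replicates 1 to 6, against 10, 12, 3, 4, 4 and 13 counts in control replicates 1 to 6. Over full library totals this was 32.5 pooled CPM (95% interval 24.3 to 42.7) in MSNBA and 67.7 pooled CPM (49.6 to 90.3) in control. These intervals hold counting error and not the spread between libraries, and the gene varied widely among single libraries. What share of all genes had pooled intervals apart was not counted.

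Fitted without the low-count filter over 19576 genes, Slc25a42 had a log2 fold change of -0.92 (SE 0.34, edgeR unadjusted p = 0.00626, adjusted p = 0.489) and did not pass adjustment. In that fit the 2614 genes named above had a median of 0.14 in place of -0.0082, so that the value lies further below that median than below 0. In all, 5 of the 43 carriers with a count had an edgeR unadjusted p under 0.05 there, where 6.96% of all genes in the fit did.

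For the cofactor carriers that follow, the intervals of the groups overlapped. Slc25a16, a carrier related to coenzyme A transport, had 47 counts in MSNBA and 23 in control (29.4 and 33.8 pooled CPM). Slc25a17, which works in the peroxisomal membrane, had 38 and 18 counts (23.8 and 26.5 pooled CPM), and the S-adenosylmethionine carrier Slc25a26 had 27 and 13 (16.9 and 19.1 pooled CPM). Slc25a32, which carries folate or flavin cofactors, had 5 and 4 counts.

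**Figure D3:**
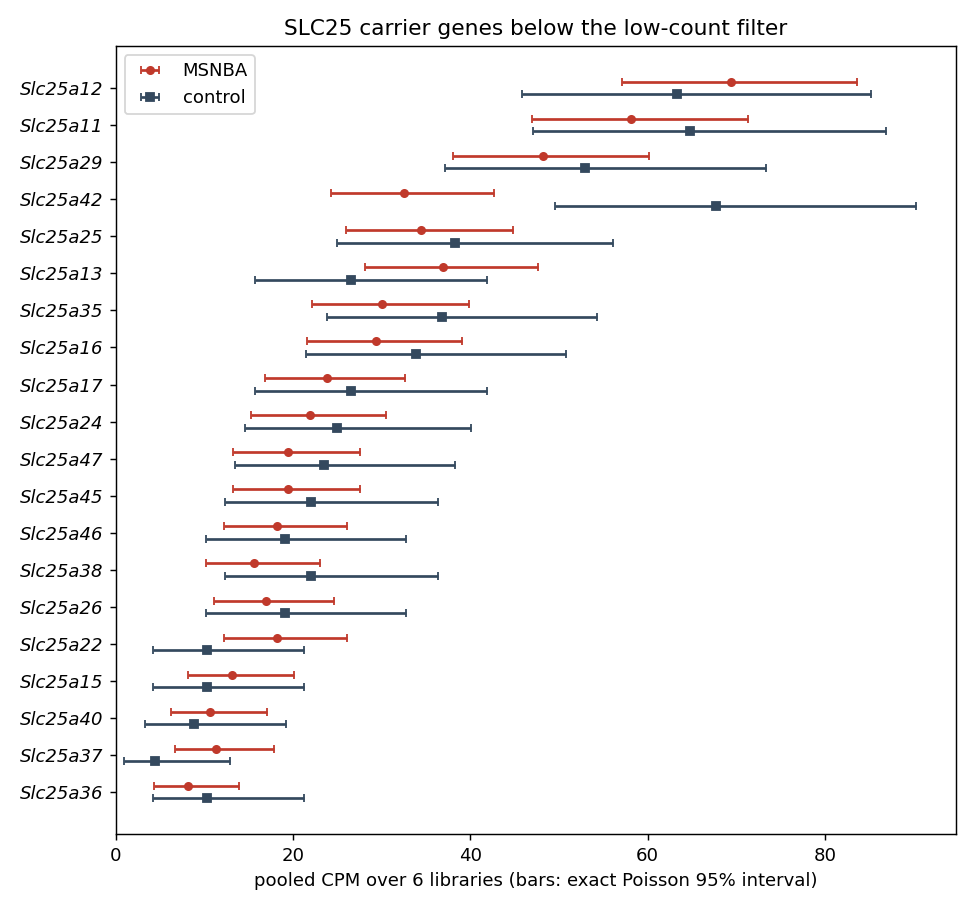
Pooled CPM over full library totals (x axis) of 20 carrier genes with at least 20 counts that fell below the low-count filter, with exact Poisson 95% intervals as bars. The MSNBA and control intervals are apart for Slc25a42 (32.5 and 67.7 CPM) and overlap for the other 19 genes drawn. The bars cover counting error only, and the share of all genes with intervals apart was not counted.

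Iron and glutathione carriers had 4 members, of which 2 were tested. Slc25a39, which brings glutathione into mitochondria, held 2643 counts, or 27.6% of the counts of the whole family. It measured 1396, 1510.4, 1639, 1287, 1418 and 1357 normalized CPM in MSNBA replicates 1 to 6, against 1327, 1721, 1560, 1299, 1365 and 1449 normalized CPM in control replicates 1 to 6. The groups overlapped almost entirely, and the log2 fold change was -0.0084 (SE 0.11), with the narrowest 95% interval of the 13 tested members, from 0.858-fold to 1.15-fold. Slc25a40, its closest relative in the family, had 17 counts in MSNBA and 6 in control (10.6 and 8.83 pooled CPM). Slc25a28, a mitoferrin that carries iron for haem and iron-sulphur clusters, ran from 108 to 186 normalized CPM in MSNBA and from 66.2 to 217 normalized CPM in control (log2 fold change 0.19, SE 0.23, 0.828-fold to 1.58-fold). Slc25a37, the mitoferrin of developing red cells, had 18 counts in MSNBA and 3 in control. This was 11.3 pooled CPM (6.67 to 17.8) in MSNBA and 4.41 pooled CPM (0.910 to 12.9) in control, with overlapping intervals.

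The other 12 members are relatives of uncoupling proteins, a protein of the outer membrane and carriers for which no role is given here, and 1 of them was tested. Slc25a34 measured 139, 321, 221, 339, 317 and 335 normalized CPM in MSNBA replicates 1 to 6, against 185, 529.4, 405, 529.1, 303 and 334 normalized CPM in control replicates 1 to 6. The deepest library of each group was the lowest of that group: MSNBA 1 with 657251 counts and control 1 with 234225 counts. The log2 fold change was -0.47 (SE 0.29, 0.470-fold to 1.10-fold, edgeR adjusted p = 0.632). It was -0.26 without MSNBA 1 and -0.17 without controls 2 and 4, and with log2 depth as a covariate its sign turned, to 0.16. As MSNBA libraries held more counts, depth and treatment cannot be told apart fully for this gene or for the other carriers. Slc25a35 had 48 counts in MSNBA and 25 in control (30.03 and 36.8 pooled CPM), and Slc25a45 had 31 and 15 (19.4 and 22.1 pooled CPM). Slc25a46, which shapes mitochondria from the outer membrane, had 29 and 13 (18.1 and 19.1 pooled CPM), and Slc25a47 31 and 16 (19.4 and 23.5 pooled CPM). Slc25a14, Slc25a27 and Slc25a30, relatives of the uncoupling proteins, had 11, 6 and 3 counts in MSNBA and 2, 5 and 2 in control. Slc25a53 had 4 and 2 counts and Slc25a54 1 and 0, and Slc25a43 and Slc25a48 had 0 in both groups.

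**Figure D4:**
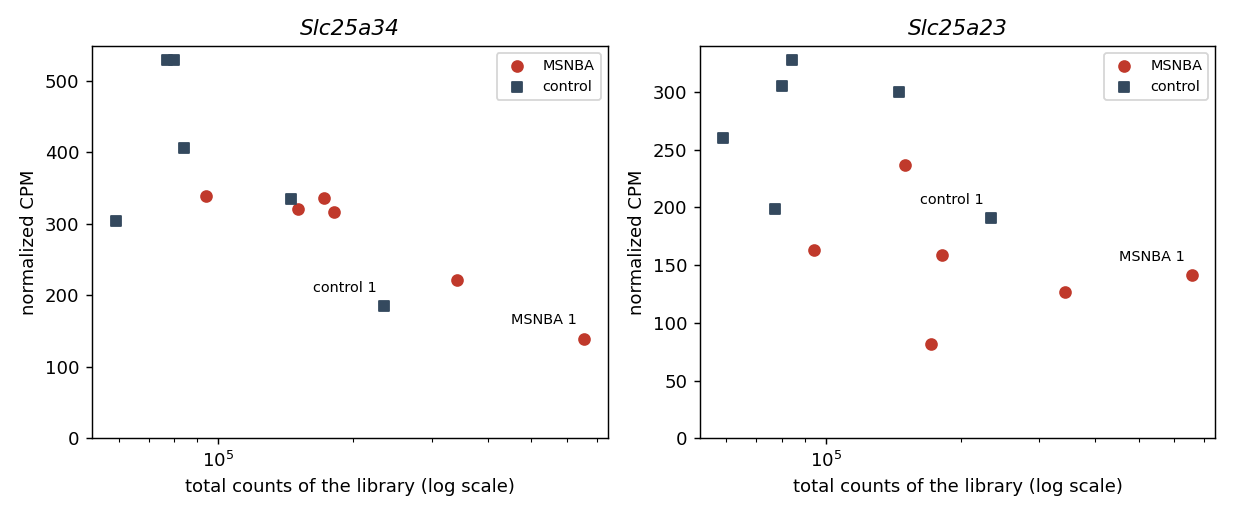
Normalized CPM (y axes, starting at 0) of Slc25a34 and Slc25a23 against the total counts of each library (x axes, log scale), for MSNBA and control libraries. The deepest MSNBA and control libraries are the lowest of their group for Slc25a34, at 139 and 185 CPM. For Slc25a23 they measured 141 and 190 CPM, the latter the lowest control, while the lowest MSNBA library was replicate 6.

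Levels of different carriers were set side by side only per length of transcript, as mean normalized CPM per kilobase of the longest protein-coding transcript in GENCODE M21. On that scale Slc25a39 had the highest level of the 13 tested members, at 857 ± 81.7 CPM per kilobase (SD, n = 12 libraries). Slc25a5 (347 ± 72.4), Slc25a3 (286 ± 66.8) and Slc25a1 (261 ± 46.1) followed, and neighbours in this trio differed by less than their SDs. Slc25a34 (124 ± 44.5) and Slc25a4 (121 ± 27.6) were next, then Slc25a10 (97.2 ± 25.3) and Slc25a28 (91.4 ± 27.4). Slc25a44, Slc25a33, Slc25a20, Slc25a23 and Slc25a51 lay between 66.8 and 50.2 CPM per kilobase, each within the SD of the next. The name of the deposited table points to counting by molecular identifier, and no source used here says whether such counts grow with transcript length. If they do not, this order would differ.

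The family's summed level overlapped between the groups. All 47 carriers together made up 4232 ± 108 CPM over full library totals in MSNBA libraries and 4278 ± 407 CPM in control libraries (SD, n = 6 each). MSNBA libraries ran from 4058 to 4357 CPM and lay inside the control range of 3840 to 4776 CPM. Controls 2 and 4 were the highest of all, at 4699 and 4776 CPM, and without these 2 the difference of the means was 183 CPM, against -46.8 CPM with them. By role, pooled levels in MSNBA and control were 1147 and 1108 CPM for adenine nucleotide and phosphate carriers, 563 and 552 CPM for carboxylate carriers and 473 and 475 CPM for amino acid and carnitine carriers. They were 397 and 477 CPM for cofactor and nucleotide carriers, 1313 and 1248 CPM for iron and glutathione carriers, and 285 and 381 CPM for the other 12. In the last set Slc25a34 alone pooled 182 CPM in MSNBA and 263 CPM in control, where its means over single libraries were 221 and 299 CPM. Pooled levels weight each library by its depth. MSNBA 1 held 657251 of the 1598286 MSNBA counts, and control 1 held 234225 of the 679637 control counts. The sums of the family and of the roles were not tested. Fewer cells with a transcript and less of it per cell cannot be told apart in such bulk libraries.

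**Figure D5:**
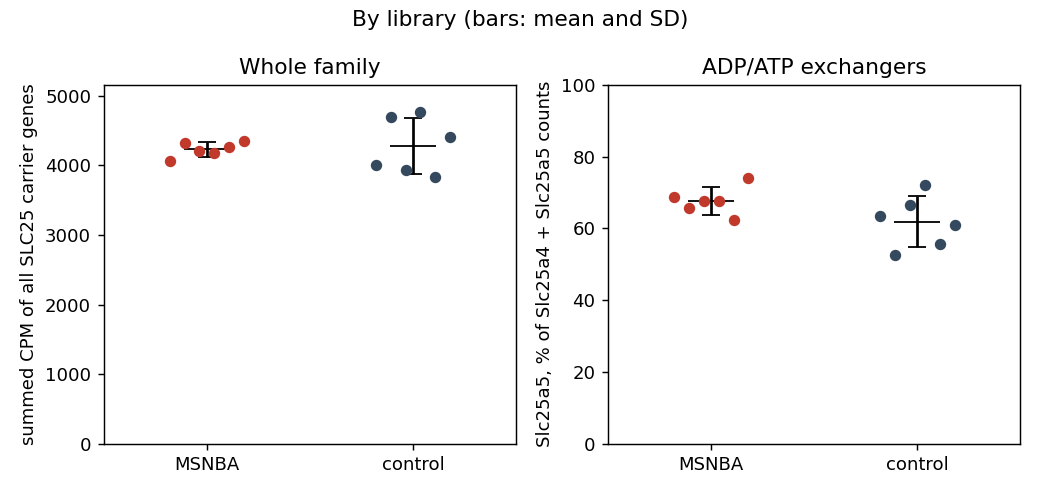
Summed CPM of all 47 SLC25 carrier genes over full library totals (left) and the share of Slc25a5 among Slc25a4 and Slc25a5 counts (right) in each MSNBA and control library, with the mean and SD as black bars. The MSNBA libraries average 4232 CPM and 67.7%, and the control libraries 4278 CPM and 61.9%, with overlapping ranges in both panels.

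Genes that work with the carriers were read out from the same fit, and none passed the adjusted threshold in either direction by edgeR. Of the SLC25 proteins known under other symbols, Ucp2, Mtch1 and Mtch2 were tested, with log2 fold changes of -0.12 (SE 0.14), 0.023 (SE 0.17) and 0.043 (SE 0.19), while Ucp1 and Ucp3 had 2 and 0 counts in MSNBA and 0 and 1 in control. Of 20 other inner membrane transporter genes, 6 were tested, with a median log2 fold change of 0.0022 and 0 at an unadjusted p under 0.05. They included Mpc1, a subunit of the pyruvate carrier, at 0.046 (SE 0.20) and Smdt1, a subunit of the calcium uniporter, at 0.21 (SE 0.16). All 4 outer membrane genes were tested, 3 channels of the Vdac family and the translocator protein gene Tspo, with a median of -0.074 and 0 at an unadjusted p under 0.05.

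Of 13 shuttle and citrate enzyme genes 10 were tested, with 6 values above 0 and 4 below and a median of 0.15. Gpd1, the cytosolic enzyme of the glycerol phosphate shuttle, had a log2 fold change of -0.32 (SE 0.14, edgeR unadjusted p = 0.0271, adjusted p = 0.448), the only one of the 10 with an unadjusted p under 0.05. Acly, which cleaves the citrate that Slc25a1 exports, had 0.19 (SE 0.19), and Mdh1 of the malate-aspartate shuttle had 0.26 (SE 0.16). Of 9 haem and iron genes 4 were tested, with a median of -0.20 and 0 at an unadjusted p under 0.05.

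The 13 tested carriers lie on mm10 at chr17:57043711-57059909 (Slc25a23), chrX:36795597-36798808 (Slc25a5), chr8:46207168-46211062 (Slc25a4), chr10:91116574-91124046 (Slc25a3), chr16:17925211-17928219 (Slc25a1), chr11:120491837-120501161 (Slc25a10), chr9:108662136-108684642 (Slc25a20) and chr3:88410494-88425141 (Slc25a44). The rest lie at chr4:149744036-149774267 (Slc25a33), chr4:45395923-45408917 (Slc25a51), chr11:102402969-102408675 (Slc25a39), chr19:43663801-43675006 (Slc25a28) and chr4:141618819-141623891 (Slc25a34). RefSeq places other genes across 3 of them: a small nucleolar RNA in Slc25a3, a microRNA in Slc25a39 and the end of a long non-coding RNA in Slc25a44. The strand of counting is not given in the sources used here, so reads from these overlaps cannot be told apart.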

How the data were processed

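RNA was measured in 12 libraries of mLTC-1 cells, 6 with 100 µM MSNBA and 6 with DMSO. The authors deposited raw counts for each gene symbol in 1 table, not normalized, whose name points to counting by molecular identifier on RefSeq genes. BWA 0.7.4.4 and mm10 come from the submitters' processing notes. Counting program and strand: not given in the sources used here.

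Genes were filtered with filterByExpr by group, scaled by TMM and tested across all genes with the robust quasi-likelihood F test of edgeR 4.0.16 in R 4.3.3, with treatment as the term. Two-sided p-values were adjusted over the 2614 tested genes by the Benjamini-Hochberg method, and these genes held 79.2% of all counts. The standard error was the log2 fold change over the square root of F. Pooled CPM and summed CPM are over full library totals, and normalized CPM over the counts of tested genes with TMM factors, so their scales differ. The test was tried on counts simulated with the same dispersion for every gene and no effect of depth on levels. Such counts cannot show how the test behaves on these libraries, and the outcome is not given here.

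The carriers and the partner lists were chosen with earlier results of these data known. Values of all libraries are given for tested carriers with an unadjusted p under 0.05, for Slc25a23 and for the 8 with the highest mean. Alternatives were DESeq2 1.42.0, limma-voom (limma 3.58.1), library size alone, RLE factors, no filter, a filter of 20 counts in 6 libraries, a replicate block, depth as a covariate, thinning, leaving out controls 2 and 4, and leaving out each library. Promoter windows are from RefSeq, where 36 of 47 carriers were matched. The reported test used all 12 libraries. One carrier below the filter is counted in the totals but not reported here by name.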

Additional observations from a re-analysis of the deposited data

Results flagged for a closer look

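Each of the 13 tested carriers, the summed level of the family and the share of Slc25a5 was checked in each group of 6 for a library that stood apart by the Dixon ratio, which gave 30 groups. Chance marks about 1 in 20 groups, and 2 of the 30 were marked. Slc25a3 measured 611 normalized CPM in MSNBA 6, where the next MSNBA library had 475 normalized CPM. Slc25a51 measured 449 normalized CPM in control 4, where the next control had 238 normalized CPM. What sets these libraries apart was not tested.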

How the results depend on the processing

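No carrier passed the adjusted threshold in any alternative: the counts of higher and lower carriers were 0 and 0 throughout. Over all genes the count of higher genes was 0 in the reported test, 8 without the low-count filter and 4 without controls 2 and 4, and 0 to 1 with 1 library left out. The count of lower genes was 2 in the reported test. It was 7 without the filter and 1 with the stricter filter, 0 with DESeq2, limma-voom, the depth covariate and thinning, and 0 to 5 with 1 library left out. At an unadjusted p under 0.05 DESeq2 gave 394 of 19576 genes with a count, and limma-voom 259 and edgeR 234 of the 2614 tested genes. Over the tested carriers the median log2 value was 0.17 without the filter, a fit in which the 2614 genes had a median of 0.14, and -0.049 to 0.093 with 1 library left out. The signs of Slc25a23, Slc25a20, Slc25a5, Slc25a33, Slc25a1 and Slc25a28 held in every fit that tested them. Signs turned for Slc25a10 (0.064 without the filter, 0.048 with depth), Slc25a3 (-0.044 after thinning), Slc25a34 (0.16 with depth), Slc25a51 (0.064 with depth) and Slc25a39 (0.019 with DESeq2, 0.0035 with limma-voom, 0.15 without the filter, 0.022 without controls 2 and 4). The cause was not tested. With 1 library left out, values ran from -0.17 to 0.00074 for Slc25a10, from -0.045 to 0.043 for Slc25a39, from -0.049 to 0.11 for Slc25a4 and from -0.061 to 0.16 for Slc25a44. Residuals of same-numbered libraries correlated at -0.14 to 0.37 over 2614 genes, above 0.1 for 2 of 6 numbers. The highest was for number 1, which is the deepest library of each group. These values do not settle whether numbers pair the libraries. With the replicate block 0 genes were higher and 3 lower, and Slc25a23 had a log2 fold change of -0.80 (edgeR adjusted p = 0.0689). Depth limits the 34 carriers below the filter.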
